A study of Mus musculus with 4 samples.

Results

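The cell cycle and DNA replication module comprised 43 genes, taken by symbol from a list that was drawn up with earlier results of these data known. All 43 were present in both count matrices, which listed 33696 genes. By their known roles, 13 members act in the passage from G1 to S phase and in the licensing of replication origins, 6 act in DNA synthesis or chromatin assembly during S phase, 20 act in G2 and mitosis, and 4 (Stmn1, Hmgb2, Cks1b and Cks2) were placed in a remaining group. The 2 single-cell libraries held CD45+ cells sorted from liver, taken from mice aged 2 months and carrying Stab2-CrexERT2 and R26-LSL-tdT, in which tamoxifen had been given at E9.5. One library held the tdTomato+ cells and the other the tdTomato- cells of the same model, so the Cre knockin, the reporter and the tamoxifen were common to both. The Cre is driven from the endogenous Stab2 locus, a gene of sinusoidal and yolk sac endothelium. There was 1 library for each sort gate, the animals behind the cells of a library could not be told apart, and the labels put the libraries in different batches, so the gate and the batch cannot be told apart either. No test between the libraries was therefore possible, and the intervals given below are 95% intervals for counting error only. Those of levels and of their ratios treat every count as independent, so the spread between cells is not in them.

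A dividing cell first loads the MCM helicase onto replication origins with the help of Cdc6 and Cdt1. It then makes deoxynucleotides and copies its DNA with Pcna as the sliding clamp, and afterwards condenses and separates its chromosomes under the control of Cdk1, the A and B cyclins, the Aurora kinases and the anaphase-promoting complex. Genes of the first step are known targets of E2F factors, and many mitotic genes carry CCAAT boxes and the cell cycle genes homology region (CHR), which is bound by the DREAM and MuvB complexes. In adult liver most lymphocytes and endothelial cells are at rest, while Kupffer cells renew locally and γδ T cells that make IL-17 are known for their capacity to expand in tissues.

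The promoters of 6 members are shown because they carry these motifs and stand for the licensing and the mitotic genes, which are compared below. The sequences are from RefSeq on GRCm38.p6, read 5′ to 3′ on the strand of the gene. Each holds the 250 bases before the annotated start, with every match to the 3 motifs in capitals. E2F-type matches were TTTCCCGC, TTTCGCGC, TTTGCCGC or TTTGGCGC, CHR-type matches were TTTGAA, and CCAAT boxes were CCAAT, each searched on both strands. The first 3 promoters belong to licensing genes and have E2F-type matches, joined by CCAAT boxes in Mcm5 and Mcm6, namely Cdc6 (chr11:98907901-98908150, plus strand), Mcm5 (chr8:75109259-75109508, plus strand) and Mcm6 (chr1:128359706-128359955, minus strand). The Mki67 (chr7:135716380-135716629, minus strand) and Top2a (chr11:99024190-99024439, minus strand) promoters have CHR-type and CCAAT matches, and the Cdk1 promoter (chr10:69352913-69353162, minus strand) has all 3 kinds.
Cdc6: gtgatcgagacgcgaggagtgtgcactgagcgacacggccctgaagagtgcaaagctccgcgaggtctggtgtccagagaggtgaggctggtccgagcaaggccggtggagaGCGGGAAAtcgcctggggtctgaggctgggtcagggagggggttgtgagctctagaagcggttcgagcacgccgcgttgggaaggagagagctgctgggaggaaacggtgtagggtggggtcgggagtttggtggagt
Mcm5: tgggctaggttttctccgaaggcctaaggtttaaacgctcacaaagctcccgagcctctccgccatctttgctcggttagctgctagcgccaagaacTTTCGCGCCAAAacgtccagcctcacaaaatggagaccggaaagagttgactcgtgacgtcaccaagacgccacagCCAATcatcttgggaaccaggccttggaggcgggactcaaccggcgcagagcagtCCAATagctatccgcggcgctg
Mcm6: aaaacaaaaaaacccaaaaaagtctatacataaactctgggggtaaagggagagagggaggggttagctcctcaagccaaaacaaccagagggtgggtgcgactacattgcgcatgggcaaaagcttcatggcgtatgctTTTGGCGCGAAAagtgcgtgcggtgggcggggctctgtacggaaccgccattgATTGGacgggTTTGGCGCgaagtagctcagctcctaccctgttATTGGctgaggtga
Mki67: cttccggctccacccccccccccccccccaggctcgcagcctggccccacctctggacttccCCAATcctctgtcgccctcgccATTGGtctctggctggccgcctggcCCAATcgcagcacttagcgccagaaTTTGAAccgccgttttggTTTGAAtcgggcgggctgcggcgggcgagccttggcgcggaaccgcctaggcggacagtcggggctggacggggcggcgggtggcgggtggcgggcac
Top2a: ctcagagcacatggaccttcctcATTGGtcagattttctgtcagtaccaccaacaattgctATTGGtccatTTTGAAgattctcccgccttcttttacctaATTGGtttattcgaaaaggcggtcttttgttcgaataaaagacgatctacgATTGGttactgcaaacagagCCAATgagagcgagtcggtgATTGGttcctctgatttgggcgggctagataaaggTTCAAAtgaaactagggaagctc
Cdk1: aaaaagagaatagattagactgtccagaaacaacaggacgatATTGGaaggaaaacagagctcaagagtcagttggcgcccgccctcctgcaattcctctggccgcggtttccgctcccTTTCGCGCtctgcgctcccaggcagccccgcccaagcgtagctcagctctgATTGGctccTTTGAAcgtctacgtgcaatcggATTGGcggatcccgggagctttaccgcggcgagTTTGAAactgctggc
Windows from 250 bases before to 50 bases after the start were at hand for 36 of the 43 members, in 38 windows because E2f2 and Mcm7 had more than 1 start. Genes were counted as having a motif when any of their windows held it. Stmn1, Mcm4, Tpx2, Ccna2, Gins2, Ccne2 and Aurkb were not among them. An E2F-type match was present in 7 of 10 G1/S genes (70.0%), in 0 of 6 S-phase genes and in 1 of 17 mitotic genes (5.88%), against 704 of all 27025 genes with a window (2.60%). A CHR-type match was present in 12 of 17 mitotic genes (70.6%) and in 20.2% of all genes. A CCAAT box was present in 15 of 17 mitotic genes (88.2%), in 6 of 10 G1/S genes and in 41.1% of all genes. Both of these were found in the same window in 12 of 17 mitotic genes (70.6%), in 2 of 10 G1/S genes and in 7.97% of all genes. Different motifs overlapped in 1 member window. These matches describe the letters of the windows and not binding.

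The deposited matrices held 17957 barcodes in the tdTomato+ library and 18444 in the tdTomato- library, with 203366009 and 156771260 unique molecular identifier (UMI) counts in all and medians of 8955 and 7128 per cell. Filtering left 17509 and 18173 cells. The libraries shared 84 barcodes, of which 80 remained after filtering. A doublet caller marked 1 and 0 cells, so it did not work here and no doublets were removed. Cell classes were rebuilt by clustering without cell cycle genes and named only from marker lists, and they need not be the classes of the study. In the γδ T-like class, Trdc, which encodes the δ chain constant region, stood at 201 counts per 1000000 UMI counts (CPM) in the tdTomato+ library and 408 CPM in the tdTomato- library, and Trac, the constant gene of the α chain, at 132 CPM in both. The 15 endothelial marker genes summed to 296 CPM in tdTomato+ γδ T-like cells and 113 CPM in tdTomato- ones, with medians of 1 and 0 counts per cell. All 15 had counts in both libraries, and 9 and 3 of them reached 10 CPM.

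The level of the module was measured in 2 ways. The first was its CPM, the counts of the 43 members per 1000000 counts of all genes, summed over the cells of a class. The second was the share of cells with at least 10 module counts. Because deeper cells pass such a limit more readily, each cell with at least 3000 UMIs was also thinned at random to 3000 UMIs, and cells that still held at least 10 module counts are called module-high cells here. Near the limit, with 8 to 12 counts, lay 16 of 269 thinned tdTomato+ γδ T-like cells and 237 of 7905 tdTomato- ones. Tags were counted at the 5′ end of transcripts and were not scaled to gene length, so CPM values are compared between cells for the same gene or sum and not between genes.

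In γδ T-like cells the module reached 4082 CPM in the tdTomato+ library (289 cells) and 2930.1 CPM in the tdTomato- library (8188 cells). At least 10 module counts were found in 45.3% (39.5 to 51.3%) and 33.8% (32.8 to 34.8%) of these cells. After thinning, 34 of 269 tdTomato+ cells (12.6%, 8.91 to 17.2%) and 542 of 7905 tdTomato- cells (6.86%, 6.31 to 7.44%) were module-high. Both measures were higher in the tdTomato+ library, and the intervals did not overlap. Module-high cells had nearly the same module level in both libraries, 14068 CPM and 14148 CPM, and the other cells stood at 1088 CPM and 985 CPM. The module-high cells were also deeper, with medians of 18595.5 and 17123 UMIs against 8376 and 7628 UMIs in the others, and the part of depth in the selection was not tested beyond the thinning. Module-high cells were also set against those with under 3 thinned module counts. Trdc stood at 126 against 251 CPM in the tdTomato+ library and at 362 against 420 CPM in the tdTomato- library. Trac stood at 130 against 103 CPM and at 146 against 113 CPM. How many module-high cells were γδ T cells was not tested. Without the cells that held at least 3 counts of the endothelial marker genes, 12.2% of tdTomato+ and 5.55% of tdTomato- γδ T-like cells were module-high, and the log2 ratio of their module CPM was 0.48.

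The direction of this difference depended on the set of cells used. The log2 ratio of module CPM, tdTomato+ over tdTomato-, was 0.48 (0.45 to 0.51) in the γδ T-like class. Among cells with a γ or δ chain contig in the matched T cell receptor libraries it was -0.26, with 3146 CPM in 132 tdTomato+ cells and 3762 CPM in 2519 tdTomato- cells, although the module-high share remained larger in the tdTomato+ library (20 of 131, 15.3%, 9.58 to 22.6%, against 246 of 2481, 9.92%, 8.77 to 11.2%), with intervals that overlapped. Contig cells could be of any class. A contig was found in 14.7% of module-high and 13.6% of other tdTomato+ γδ T-like cells, against 32.7% and 25.6% in the tdTomato- library. Most of the 132 tdTomato+ contig cells were thus of other classes, while most tdTomato- ones were γδ T-like. Among cells of any class with at least 2 Trdc counts and no Trac or Trbc count the log2 ratio was -0.99. That definition left only 27 tdTomato+ cells, with 933 CPM and 0 of 25 module-high, and 327 tdTomato- cells, with 1854 CPM and 12 of 240 module-high (5.0%). The makeup of the class differed as well. A sub-cluster led by Stab2, with 102 tdTomato+ and 18 tdTomato- cells, and one of 15 tdTomato- cells had been left out of the class because their Trdc levels were low (13.6 and 39.0 CPM). In the former 8 of 101 tdTomato+ cells were module-high (7.92%). Of the sub-clusters that were kept, those with most tdTomato+ cells were led by Trav13-5 (51 cells), Klra7 (46 cells) and Trgv6 (38 cells), and those with most tdTomato- cells by Trav15-2-dv6-2 (1484 cells), Htra3 (1284 cells) and Klra7 (1156 cells).

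The αβ T-like module level was 3359.7 CPM (2524 tdTomato+ cells) and 3486 CPM (4468 tdTomato- cells), and 198 of 2327 (8.51%, 7.41 to 9.72%) and 308 of 4208 cells (7.32%, 6.55 to 8.15%) were module-high. In natural killer (NK)-like cells it stood at 3581 CPM and 3115 CPM, and 65 of 469 (13.9%, 10.9 to 17.3%) and 18 of 176 cells (10.2%, 6.17 to 15.7%) were module-high. In both classes the intervals of the shares overlapped between the libraries. Of the thinned NK-like cells 36 of 469 and 8 of 176 lay near the limit, with 8 to 12 counts. At 20 thinned counts the NK-like shares were 6.18% and 5.68%, against 5.46% and 5.49% in αβ T-like cells. B lineage-like cells were lowest among the lymphocytes with enough cells in both libraries, at 2094 CPM and 1310.5 CPM, with 10 of 315 (3.17%, 1.53 to 5.76%) and 10 of 458 cells (2.18%, 1.05 to 3.98%) module-high. Their log2 ratio of module CPM, 0.68, was larger than that of γδ T-like cells, while the intervals of their shares overlapped.

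Among macrophage-like cells 110 of 887 tdTomato+ (12.4%, 10.3 to 14.8%) and 62 of 427 tdTomato- cells (14.5%, 11.3 to 18.2%) were module-high, and among dendritic-like cells 64 of 401 (16.0%, 12.5 to 19.9%) and 30 of 305 (9.84%, 6.74 to 13.7%). Monocyte-like and neutrophil-like cells had lower shares in the tdTomato+ library, at 24 of 645 (3.72%, 2.40 to 5.49%) against 33 of 442 (7.47%, 5.19 to 10.3%) and 21 of 294 (7.14%, 4.48 to 10.7%) against 24 of 192 (12.5%, 8.18 to 18.03%). The intervals overlapped in every myeloid class. Endothelial-like cells, which nearly all came from the tdTomato+ library, had a low share, 105 of 5766 (1.82%, 1.49 to 2.20%), at 875 CPM, and tdTomato+ innate lymphoid-like cells had 2 of 148 (1.35%). Of the tdTomato- endothelial-like cells 0 of 13 were module-high, which allows a share of up to 23.1% (3 counts of the total).

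**Figure D1:**
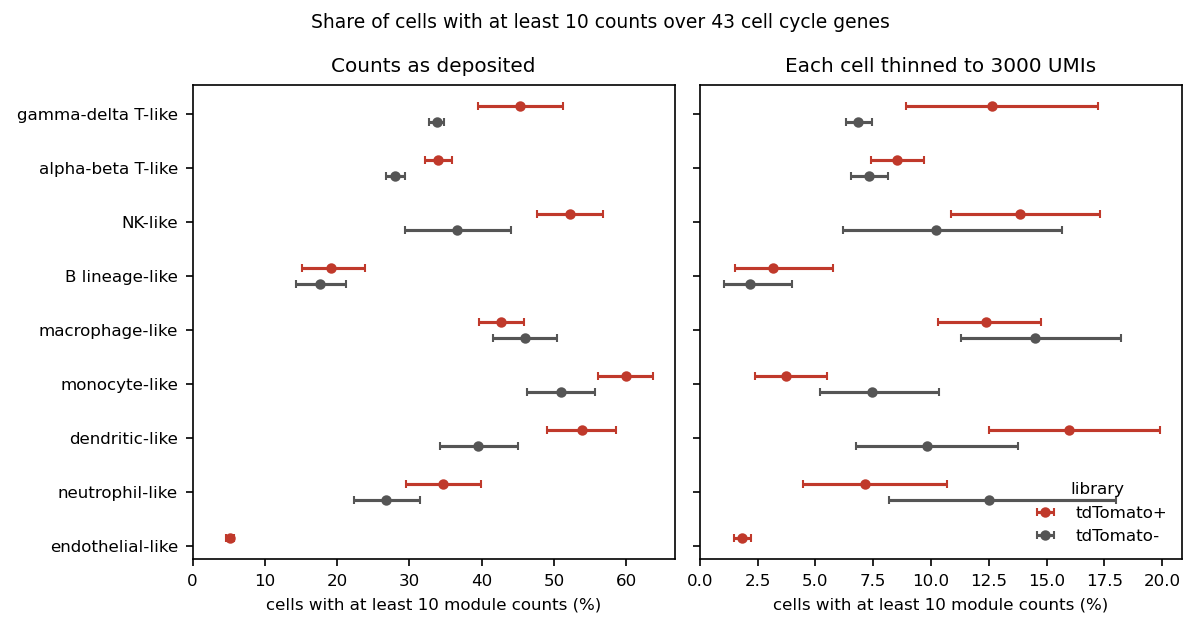
Share of cells with at least 10 module counts, in percent, by rebuilt class and library, before (left) and after (right) thinning each cell to 3000 UMIs, where bars are exact 95% binomial intervals over cells. After thinning, tdTomato- γδ T-like cells lie at 6.86%, tdTomato+ γδ T-like cells at 12.6% and tdTomato+ endothelial-like cells at 1.82%.

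By class, the module-high cells of the 2 libraries were composed differently, as were the libraries themselves. Of all module-high tdTomato- cells, 50.6% were γδ T-like and 28.7% αβ T-like, followed by macrophage-like (5.78%) and monocyte-like cells (3.08%). Of all module-high tdTomato+ cells, 32.5% lay in clusters with endothelial markers that also had Ptprc (CD45), called mixed here, 19.5% were αβ T-like, 10.8% macrophage-like, 10.3% endothelial-like and 3.34% γδ T-like.

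Within the γδ T-like cells the IL17 and Gzmk subsets held most of the module. These subsets were named from markers such as Il17a, Il17f and Il23r, or Gzmk, Ccl5 and Eomes, and the Ncr1 subset from Ncr1, Tyrobp and Fcer1g. In the IL17 subset the module stood at 5654 CPM (71 tdTomato+ cells) and 5118 CPM (1383 tdTomato- cells), and 7 of 65 (10.8%, 4.44 to 20.9%) and 172 of 1330 cells (12.9%, 11.2 to 14.9%) were module-high. In the Gzmk subset it stood at 4058 CPM (75 cells) and 4382 CPM (1993 cells), with 13 of 66 (19.7%, 10.9 to 31.3%) and 235 of 1921 cells (12.2%, 10.8 to 13.8%) module-high. These shares did not differ between the libraries beyond their intervals, nor did IL17 differ from Gzmk in the tdTomato- library. In the Gzmk subset 11 of 66 thinned tdTomato+ cells and 95 of 1921 tdTomato- ones lay near the limit, with 8 to 12 counts. At 20 thinned counts the Gzmk shares were 10.6% and 8.33%.

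The Ncr1 subset was low in the module, at 1819 CPM (65 tdTomato+ cells) and 1342 CPM (3105 tdTomato- cells). Of its cells 5 of 64 (7.81%, 2.59 to 17.3%) and 65 of 2998 (2.17%, 1.68 to 2.76%) were module-high. The naive subset, named from Ccr7, Lef1 and Tcf7, was of like level at 1340.3 CPM (13 cells) and 1393 CPM (499 cells), with 1 of 13 (7.69%) and 23 of 483 cells (4.76%, 3.04 to 7.06%) module-high. Before thinning, 69.2% and 60.1% of naive cells had at least 10 module counts, the largest share of any subset, and these cells were deeper than the other subsets, with medians of 10797 and 13489 UMIs. An unnamed remainder differed most between the libraries, at 4531 CPM (65 cells) and 1692 CPM (1208 cells), with 8 of 61 (13.1%, 5.84 to 24.2%) and 47 of 1173 cells (4.01%, 2.96 to 5.29%) module-high.

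In the tdTomato- library the Gzmk subset made up 43.4% of module-high γδ T-like cells but 24.3% of the cells deep enough to be thinned. The IL17 subset made up 31.7% and 16.8%, and the Ncr1 subset 11.99% and 37.9%. The IL17 figure was not stable, since it was 15.3% once cells with at least 3 endothelial marker counts were left out, 19.5% among cells with a receptor contig and 54.7% with cell cycle genes kept in the clustering. The endothelial limit is in raw counts and falls unevenly on the subsets. The median tdTomato- IL17 cell had 2 such counts and 9295 UMIs. The median Gzmk and Ncr1 cells had 0 such counts and 7088 and 7379 UMIs. Of the 15 marker genes, 3 reached 10 CPM in the IL17 subset. The 34 module-high tdTomato+ cells were divided into 38.2% Gzmk, 23.5% unnamed, 20.6% IL17, 14.7% Ncr1 and 2.94% naive. The receptor genes of the Gzmk subset were mixed, with Trac at 277 CPM and Trdc at 98.8 CPM in the tdTomato+ library and 322 CPM and 398 CPM in the tdTomato- library, against Trac at 214 and 203 CPM in αβ T-like cells. How many of its cells were αβ T cells was not tested.

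Sub-clusters inside a subset differed more than the subsets did. In the tdTomato- library the IL17 sub-cluster led by Scart2 and Il17f had 137 of 744 module-high cells (18.4%, 15.7 to 21.4%) and the one led by Areg and Ccr7 had 33 of 265 (12.5%). The IL17 sub-cluster led by Trgv6 and Scart1 had 2 of 321 (0.623%, 0.0755 to 2.23%), far below both. The tdTomato+ cells were few but gave 4 of 19 (21.1%) in the Scart2 sub-cluster and 0 of 35 in the Trgv6 sub-cluster, which allows up to 8.57% on the same rule. In the Gzmk subset the sub-cluster led by Trav13-5 had 144 of 315 module-high tdTomato- cells (45.7%, 40.1 to 51.4%) and 12 of 42 tdTomato+ cells (28.6%, 15.7 to 44.6%), whereas those led by Trav13-2 and Trav15-1-dv6-1 had 36 of 883 (4.08%) and 55 of 723 (7.61%) in the tdTomato- library. The Trav13-5 sub-cluster was also led by H2bc12, Spc24, Kif15 and Ccnb2, so its share is not independent of the clustering. All 5 Ncr1 sub-clusters lay between 0.676% and 5.0% in the tdTomato- library.

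**Figure D2:**
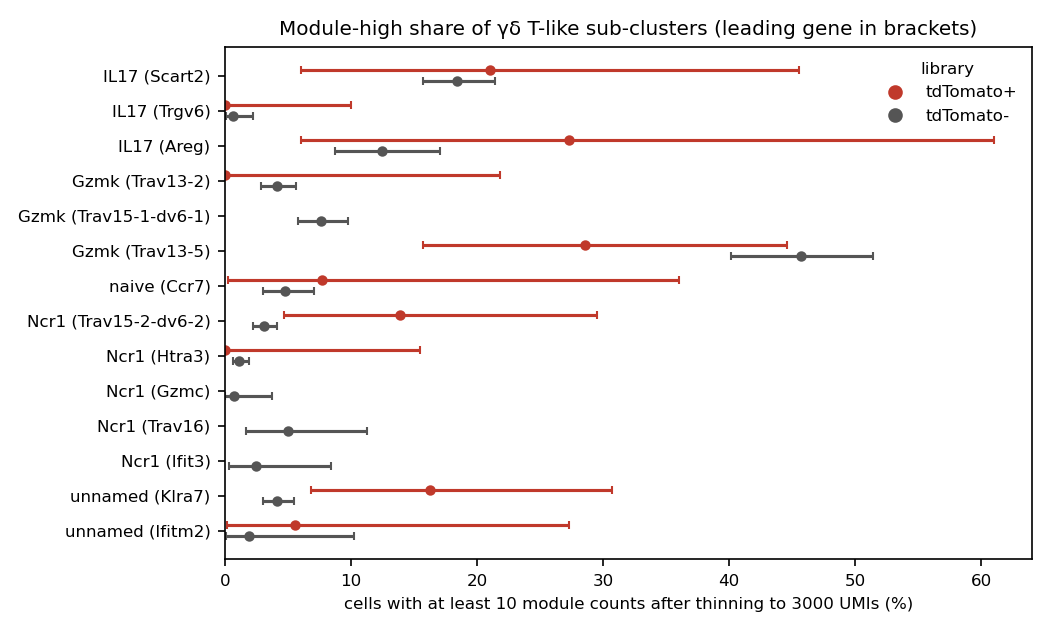
Module-high share, in percent of cells with at least 3000 UMIs, of each γδ T-like sub-cluster by library, where bars are exact 95% binomial intervals over cells and values are left out where a library had too few cells. The tdTomato- sub-clusters run from 0.623% (IL17, led by Trgv6) to 45.7% (Gzmk, led by Trav13-5).

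The contigs of the receptor libraries were carried by cells of any class, and 5 of the 20 module-high tdTomato+ cells and 177 of the 246 module-high tdTomato- cells with a γ or δ contig were γδ T-like. These were 32.7% of the module-high tdTomato- and 14.7% of the module-high tdTomato+ γδ T-like cells. In the tdTomato- library the module-high share was 129 of 908 cells (14.2%, 12 to 16.6%) with a TRGV4 contig, 53 of 659 (8.04%, 6.08 to 10.4%) with TRGV1 and 15 of 292 (5.14%) with TRGV2. Among δ chains it was 48 of 264 (18.2%) with TRDV5 and 16 of 378 (4.23%, 2.44 to 6.78%) with TRDV2-2. TRGV4 cells were thus module-high more often than TRGV1 cells beyond their intervals. In the tdTomato+ library 7 of 47 TRGV4 cells (14.9%), 6 of 29 TRGV1 cells (20.7%) and 3 of 32 TRGV2 cells (9.38%) were module-high, numbers too small to order.

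Among the licensing genes, the MCM helicase subunits were broadly expressed. Mcm6 (ENSMUSG00000026355, chr1:128331590-128359664) had 116 CPM in tdTomato+ and 81.1 CPM in tdTomato- γδ T-like cells, 91.0 and 98.7 CPM in αβ T-like cells and 152 and 109 CPM in NK-like cells. It was lower in monocyte-like cells (23.1 and 35.0 CPM) and in tdTomato+ endothelial-like cells (22.1 CPM). Inside the tdTomato- γδ T-like class it was highest in the Gzmk subset (121 CPM), followed by IL17 (85.4 CPM), Ncr1 (62.6 CPM) and naive cells (55.7 CPM). Cdt1, which loads MCM onto origins, differed less between these subsets (55.6, 48.3, 41.0 and 45.9 CPM) and had its highest class level in B lineage-like cells, 69.6 and 59.2 CPM. E2f2, of the E2F activators, stood out in the IL17 subset, at 51.0 and 70.4 CPM in the 2 libraries against 15.6 and 12.4 CPM in the Gzmk subset and 7.52 and 1.87 CPM in the Ncr1 subset.

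Of the S-phase genes, Pcna (ENSMUSG00000027342, chr2:132249162-132253314), the replication clamp, gave 9.78% of all module counts in the tdTomato+ library and 6.97% in the tdTomato- library. It reached 326 and 203 CPM in γδ T-like cells, 288 and 242 CPM in αβ T-like cells and 339 and 241 CPM in NK-like cells, and the lowest level among the classes plotted was 97.0 CPM, in tdTomato- B lineage-like cells. Rrm2, the regulated subunit of ribonucleotide reductase, was more restricted. It stood at 102 and 159 CPM in the IL17 subset, 38.1 and 78.9 CPM in the Gzmk subset and 20.7 and 12.6 CPM in the Ncr1 subset. Tk1, thymidine kinase of the salvage pathway, was highest in macrophage-like cells, at 88.3 and 55.6 CPM, against 45.6 and 27.0 CPM in γδ T-like cells.

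Among the mitotic genes, Mki67 (ENSMUSG00000031004, chr7:135689784-135716361), which coats mitotic chromosomes, stood at 229 and 159 CPM in γδ T-like cells, 155 and 178 CPM in αβ T-like cells, 167 and 165 CPM in NK-like cells and 43.2 CPM in tdTomato+ endothelial-like cells. Among the named γδ subsets it was highest in IL17 (374 and 334 CPM), followed by Gzmk (166 and 257 CPM). It was lower in Ncr1 (67.6 and 40.8 CPM) and naive cells (56.7 and 42.0 CPM). Top2a (ENSMUSG00000020914, chr11:98992943-99024189), the topoisomerase that untangles replicated DNA, had the same first places, with 319 and 389 CPM in IL17, 182 and 267 CPM in Gzmk and 45.1 and 41.0 CPM in Ncr1 cells. Ube2c, the ubiquitin-conjugating enzyme of the anaphase-promoting complex, gave the steepest order of the 3, from 417 and 273 CPM in IL17 and 151 and 179.8 CPM in Gzmk to 1.88 and 21.0 CPM in Ncr1 cells. The tdTomato+ Ncr1 value is 1 count over 65 cells. Kif23, a kinesin of the central spindle, was instead higher in macrophage-like (82.4 and 67.3 CPM), dendritic-like (66.5 and 58.0 CPM) and neutrophil-like cells (62.2 and 91.5 CPM), against 42.7 and 29.1 CPM in γδ T-like cells.

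Hmgb2 (ENSMUSG00000054717, chr8:57511907-57515999), a chromatin protein, dominated the module, with 24.1% of its counts in the tdTomato+ library and 28.7% in the tdTomato- library. It stood at 1047 and 886 CPM in γδ T-like cells, at 906 and 961 CPM in αβ T-like cells and at 618 and 1275 CPM in neutrophil-like cells. Stmn1, a regulator of microtubules, was highest in NK-like cells, at 129.9 and 153 CPM. Cks2, a partner of the cyclin-dependent kinases, was highest in neutrophil-like cells (145 and 204 CPM).

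**Figure D3:**
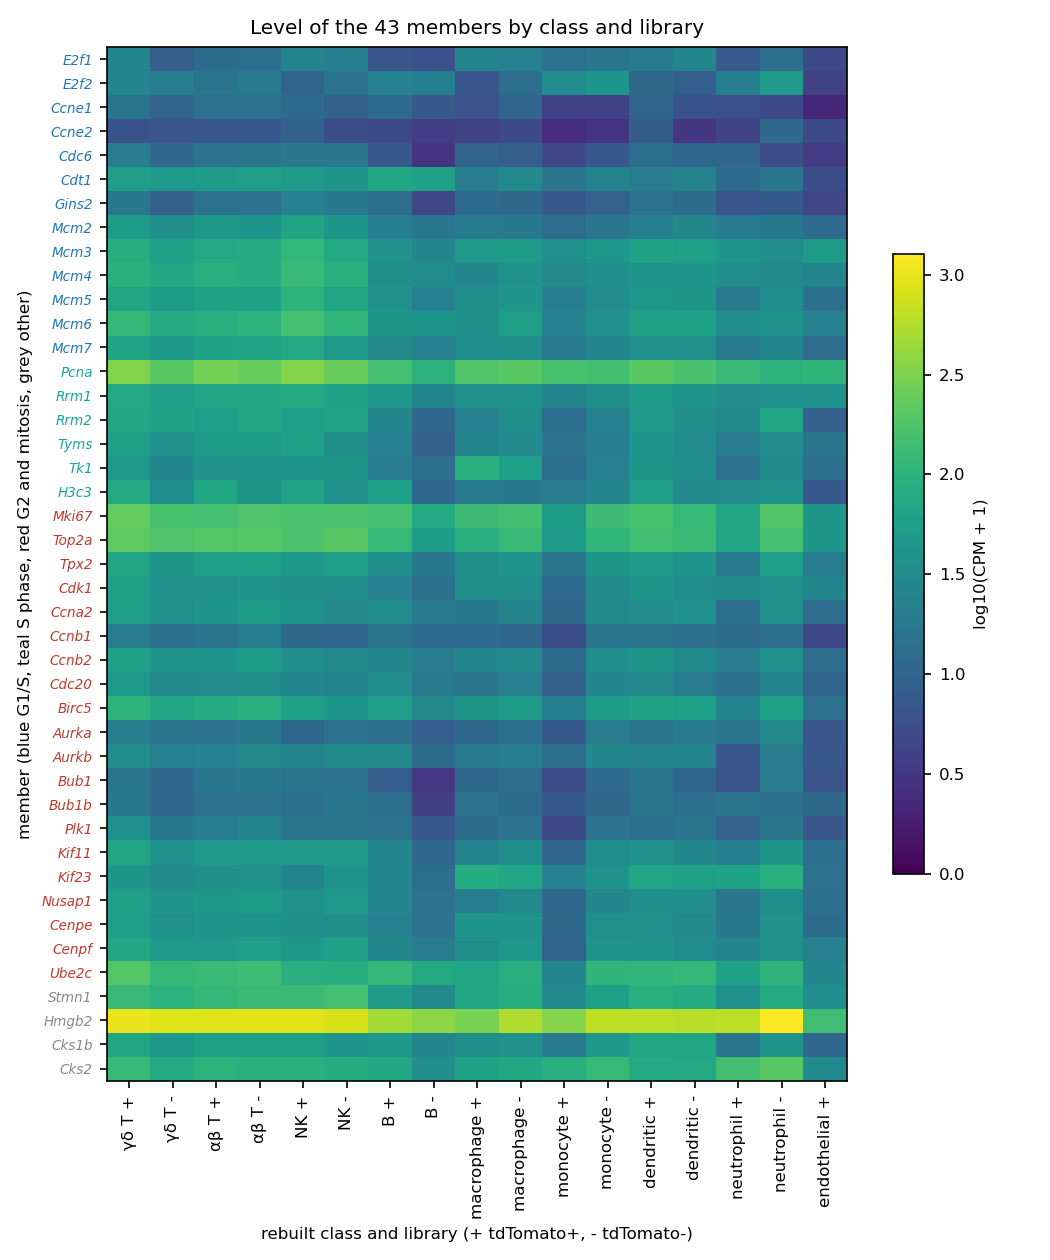
Level of each of the 43 members (rows, coloured by role) in each rebuilt class and library (columns), as log10(CPM + 1), with tdTomato- endothelial-like cells left out because there were only 13. Hmgb2 and Pcna are high in every column, while most mitotic genes are brighter in the T-like and NK-like columns than in endothelial-like cells.

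The members differed in how far they were confined to module-high cells. Because these cells were chosen by the sum of the members, the contrast is descriptive and has no test. In the tdTomato- γδ T-like cells, Birc5, a subunit of the chromosomal passenger complex, stood at 436 CPM in module-high and 1.13 CPM in the other cells, and Ccna2 (cyclin A) at 248 and 0.511 CPM. Bub1, a checkpoint kinase, stood at 67.9 and 0.128 CPM, and Mki67 at 990.5 and 14.9 CPM. These mitotic genes were close to 0 outside the module-high cells. Several licensing genes were not, with Mcm6 at 224 and 56.0 CPM, Mcm4 at 167 and 52.1 CPM and Cdt1 at 90.4 and 38.5 CPM. The roles did not divide cleanly, since Cdc6, also a licensing gene, stood at 61.5 and 0.894 CPM. Rrm2, an S-phase gene, stood at 396 and 4.71 CPM. Pcna stood at 563 and 141 CPM and Hmgb2 at 3572 and 421 CPM.

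Over all cells of the tdTomato- library, module-high cells held 98.8% of the Ccna2 counts, 98.6% of Birc5, 98.0% of Bub1, 93.2% of Mki67 and 91.0% of Top2a. They held only 64.6% of Hmgb2, 48.4% of Mcm6, 45.9% of Pcna, 42.3% of Mcm4 and 33.8% of Cdt1. Exceptions to a split by role were Cdc6 (92.7%), Rrm2 (94.8%) and H3c3 (98.2%), and the mitotic gene Kif23 (75.5%). By role, mitotic genes gave 43.7% of the module counts of module-high tdTomato- γδ T-like cells and 7.46% of those of the others, while G1/S genes gave 10.3% and 26.9%. The tdTomato+ cells had a like split, with mitotic genes at 42.2% and 7.67% and G1/S genes at 12.1% and 29.6%. In cells below the limit the module sum was therefore mainly that of the remaining group, which includes Hmgb2, and of the licensing and S-phase genes.

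**Figure D4:**
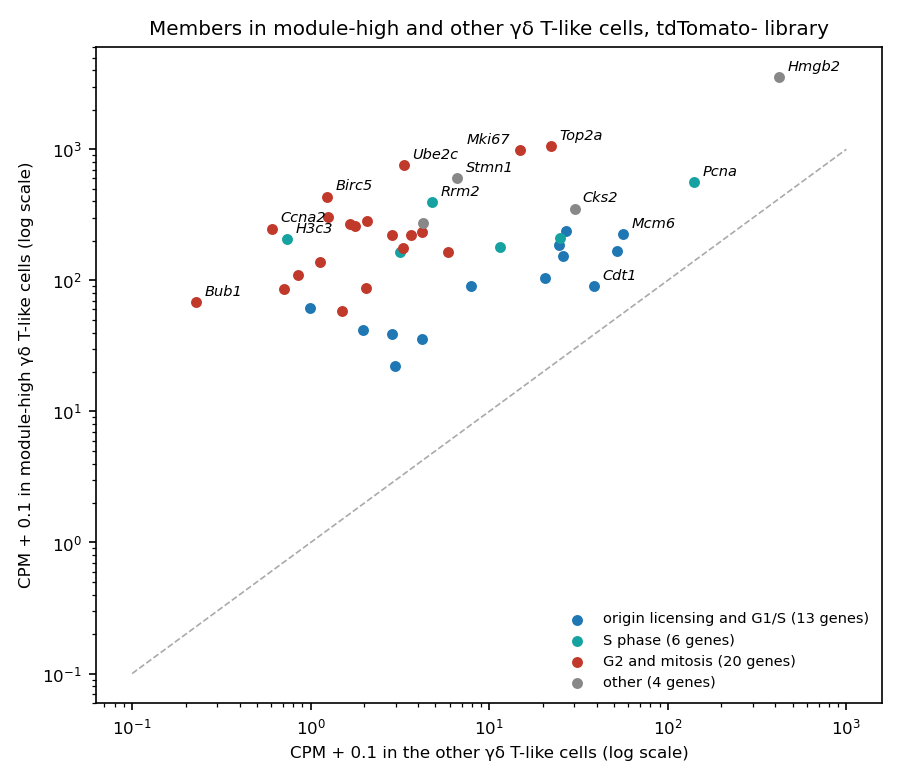
Each point is 1 member, placed by its CPM + 0.1 in module-high (vertical, log scale) and other (horizontal, log scale) γδ T-like cells (tdTomato-), coloured by role, with a dashed line of equal level. All members lie above the line, with mitotic genes such as Bub1 (67.9 against 0.128 CPM) far to the left. Some licensing genes, such as Cdt1 (90.4 against 38.5 CPM), lie nearer to the line, but Cdc6 (61.5 against 0.894 CPM) does not.

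The balance of S-phase and mitotic counts in single module-high cells differed between subsets. Counts over the 19 G1/S and S-phase genes exceeded those over the 20 mitotic genes in 22 of 34 tdTomato+ γδ T-like cells (64.7%, 46.5 to 80.3%) and in 229 of 542 tdTomato- ones (42.3%, 38.1 to 46.5%). For the tdTomato- subsets this share was 26.2% (19.8 to 33.4%) of 172 IL17 cells, 46.0% (39.5 to 52.6%) of 235 Gzmk cells and 55.4% (42.5 to 67.7%) of 65 Ncr1 cells. It was 84.6% (54.6 to 98.1%) of the 13 tdTomato+ Gzmk cells, above the tdTomato- ones beyond the intervals. Only 7 tdTomato+ Gzmk cells held 20 or more thinned counts, and the part of cells near the limit in this share was not tested. The tdTomato- IL17 subset was thus weighted toward mitotic counts compared with the Gzmk and Ncr1 subsets, and its interval did not overlap theirs. Cells whose mitotic counts were at most 10% of the sum of both were 2 of 172 IL17, 47 of 235 Gzmk and 18 of 65 Ncr1 module-high cells.

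The same measure varied among the other classes. It was 76.9% (64.8 to 86.5%) of 65 tdTomato+ and 61.1% of 18 tdTomato- NK-like cells, 54.0% and 46.4% of αβ T-like cells, and 30.9% and 32.3% of macrophage-like cells. In tdTomato+ endothelial-like cells it was 23.8% of 105 cells. The lowest value of a named class was that of tdTomato- neutrophil-like cells, 16.7% of 24, against 47.6% of 21 in the tdTomato+ library. B lineage-like cells gave 30% and 40% of 10 cells each, and monocyte-like cells 41.7% and 30.3%. These shares compare sums over gene lists of unequal level and do not count cells in a phase.

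**Figure D5:**
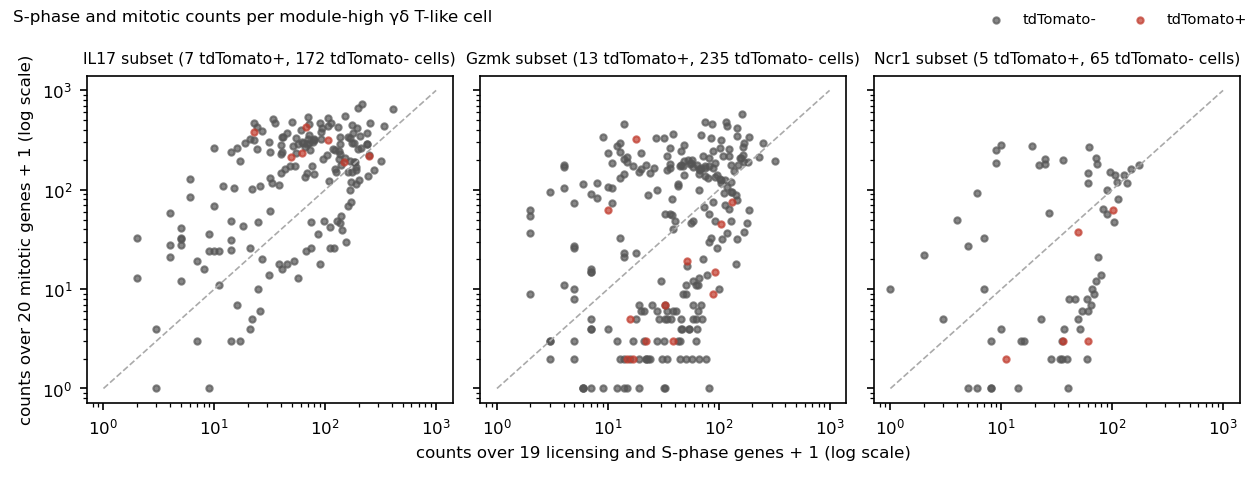
Each point is 1 module-high γδ T-like cell, placed by its unthinned counts + 1 over the 19 G1/S and S-phase genes (horizontal, log scale) and over the 20 mitotic genes (vertical, log scale), for the IL17, Gzmk and Ncr1 subsets and both libraries, with a dashed line of equality. Of the tdTomato- points, 26.2% of IL17, 46.0% of Gzmk and 55.4% of Ncr1 cells lie below the line.

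Between the libraries, single members were compared where a gene reached 50 CPM in at least 1 library and differed at least 2-fold. In γδ T-like cells 28 members reached that level, 1 was higher in the tdTomato+ library and 0 were lower. Among all 3761 genes at that level, 0.585% were higher and 0.372% lower. The members' median log2 ratio was 0.54, against 0.02 over all these genes. The 1 member was H3c3 (ENSMUSG00000069310, chr13:23744973-23745602), a replication-dependent histone H3 gene, with 213 counts (77.1 CPM) and 2308 counts (31.1 CPM) and a log2 ratio of 1.31 (1.10 to 1.51). Histone H3 genes have near-identical copies, how reads were divided among them was not given, and replication-dependent histone transcripts lack a poly(A) tail while the labels give the molecule as polyA RNA. Its level is therefore uncertain.

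All 28 members at that level had a log2 ratio above 0, where the median over all 3761 genes was 0.02. These ratios are not independent, since the counts of mitotic members lay largely in the same 34 module-high tdTomato+ cells. Kif11, the bipolar spindle motor, stood at 65.2 and 38.0 CPM (log2 ratio 0.78, 0.55 to 1.00), Cdk1, the mitotic kinase, at 57.6 and 35.4 CPM (0.71, 0.46 to 0.93) and Pcna at 326 and 203 CPM (0.68, 0.58 to 0.78). Ratios were smaller for Mki67 (0.52, 0.40 to 0.64), Top2a (0.30, 0.18 to 0.42) and Hmgb2 (0.24, 0.19 to 0.29). The intervals of Rrm2 (0.18, -0.04 to 0.38) and Cdt1 (0.21, -0.05 to 0.44) included 0. E2f1, an activator of S-phase genes, and Plk1, a mitotic kinase, lay below 50 CPM in both libraries and were more than 2-fold higher in tdTomato+ cells, at 25.4 and 7.72 CPM and at 34.8 and 16.9 CPM. Summed by role, the log2 ratio was 0.60 for G1/S and S-phase genes, 0.56 for mitotic genes and 0.30 for the remaining group.

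The subsets did not share one pattern behind these class ratios. In the Gzmk subset tdTomato+ cells had 1565 CPM and tdTomato- cells 1209 CPM of the G1/S and S-phase genes, against 1085 CPM and 1549 CPM of the mitotic genes. In the IL17 subset the former were close (1199.9 and 1174 CPM) and the mitotic genes were 2471 and 2107 CPM. In the Ncr1 subset the former were 1028 and 552 CPM and the mitotic genes 237 and 229 CPM. Among single genes, Mcm2, an MCM subunit, was higher in the tdTomato+ library in Gzmk and Ncr1 but not in IL17 cells, with 90.1 and 54.2 CPM in Gzmk, 18.2 and 27.3 CPM in IL17 and 73.3 and 25.5 CPM in Ncr1 cells. The tdTomato+ values rest on 75, 71 and 65 cells.

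In αβ T-like cells 20 members reached the level and 0 were higher or lower, with 0.318% of 3457 genes called each way. In NK-like cells 21 reached it and 0 were called, with 1.05% of 3899 genes higher and 1.38% lower. Their median log2 ratios were -0.08 and 0.45, against -0.03 and 0.01 over all genes. In B lineage-like cells 3 of 9 members were higher in the tdTomato+ library, H3c3 (log2 ratio 2.43), Top2a (1.28) and Cks2 (1.09), with 4.45% of 3391 genes higher and 3.33% lower. Only 10 cells of each library were module-high in this class, and the 15 endothelial marker genes summed to 3188 CPM in its tdTomato+ and 365 CPM in its tdTomato- cells. The same sums were 615 and 285 CPM in αβ T-like cells and 314 and 120.1 CPM in NK-like cells.

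Among myeloid classes, macrophage-like cells had 0 of 12 members called either way, with 5.42% of 4429 genes higher and 6.14% lower, and dendritic-like cells 0 of 14, with 7.13% of 4014 genes higher and 3.76% lower. In monocyte-like cells 4 of 8 members were at least 2-fold lower in the tdTomato+ library, Ube2c (log2 ratio -2.03), Mki67 (-1.47), Birc5 (-1.28) and Top2a (-1.21), with 1.74% of 4019 genes lower and 8.48% higher. All 4 are mitotic genes. The leading genes of the monocyte-like class included Elane, Mpo and Prtn3 beside F13a1 and Lyz2, so unlike cells may be pooled in it. The part of such a mixture in these ratios was not tested. In neutrophil-like cells 7 of 11 members were lower, namely Tpx2, a spindle assembly factor (-1.54), Mki67 (-1.46), Birc5 (-1.24), Stmn1 (-1.22), Top2a (-1.19), Rrm2 (-1.16) and Hmgb2 (-1.05), with 6.49% of 4254 genes lower and 24.8% higher. The 15 endothelial marker genes summed to 8083 CPM in tdTomato+ and 496 CPM in tdTomato- monocyte-like cells and to 17838 and 205 CPM in neutrophil-like cells, and all 15 had counts in the tdTomato+ cells of both classes. They summed to 3989 and 529 CPM in macrophage-like cells and to 6477 and 421 CPM in dendritic-like cells. In neutrophil-like cells the 8 erythroid marker genes summed to 1131 CPM with the reporter and 10336 CPM without it, with 5 and 8 of them counted, and the median cell had 8285.5 and 3007.5 UMIs. The part of these markers and of depth in the ratios was not tested.

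The other classes also held clusters of unlike level. In αβ T-like cells the cluster led by Gzmk, Cd8b1 and Klrg1 had 20.9% module-high tdTomato+ and 20.5% tdTomato- cells, although H1f5 and Pclaf were among its leading genes and its share is not independent of the clustering. The cluster led by Il4 and Zbtb16 had 15.4% (12.3 to 18.8%) and 7.68% (6.14 to 9.45%), the only one of the 5 whose intervals did not overlap between the libraries. Its scores from the αβ and γδ T cell marker lists were close, at 0.28 and 0.23, so its lineage is uncertain. The cluster led by Foxp3 and Tnfrsf4 had 8.76% and 12.1%, that led by Dapl1, Cd8b1 and Ccr7 2.08% and 2.35%, and that led by Lef1, Ccr7 and Cd4 0.185% and 0.321%. The last held 632 of the 2524 tdTomato+ αβ T-like cells, more than any other cluster, whereas the Dapl1 cluster held the largest number of the tdTomato- ones (1475 of 4468).

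Dendritic-like cells divided in the same way. The cluster led by Xcr1 and Clec9a, genes of conventional type 1 dendritic cells, had 21.6% (16.9 to 26.8%) and 25.0% (17.03 to 34.4%) module-high cells, and the cluster led by Siglech, a gene of plasmacytoid dendritic cells, 2.54% and 1.99%. The first held 310 of the 433 tdTomato+ dendritic-like cells and the second 222 of the 339 tdTomato- ones, which moves with the difference between the class shares given above. Macrophage-like clusters led by Clec4f, Cd5l and Vsig4, genes of Kupffer cells, had 11.97% and 9.04%, and those led by Retnla and Prg4 had 15.5% and 18.01%. The Retnla cluster also held T cell RNA, with Cd3e at 424 CPM, Trdc at 119 CPM and Trac at 82.0 CPM. The Clec4f cluster had 75.2, 12.6 and 31.4 CPM of these genes. Of the 518 tdTomato- macrophage-like cells, 348 lay in the Retnla cluster. Neutrophil-like cells led by Ngp and Camp, genes of granules made early in maturation, had 17.9% and 17.5%, against 5.49% and 11.2% in the cluster led by Il1r2 and Cxcr2. Among tdTomato+ endothelial-like clusters the one led by Lyve1 and Stab2, sinusoidal genes, had 2.78%, that led by Rspo3 and Wnt9b, genes of the central vein, 1.18%, and that led by Adgrg6 and Mecom 0.193%.

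Other cell cycle genes outside the module were compared between module-high γδ T-like cells and those with under 3 thinned module counts, which were 542 and 3503 cells in the tdTomato- library and 34 and 98 cells in the tdTomato+ library. Among genes that reached 50 CPM in either group, 10.2% of 4023 tdTomato- genes were at least 2-fold higher in module-high cells and 5.34% lower, and 10.5% and 6.14% of 4235 tdTomato+ genes. Of 22 further spindle and chromosome genes, 20 reached the level in each library and all of these were higher, with median log2 ratios of 5.72 and 5.21. Of 14 further replication fork genes, 8 of 9 and 10 of 10 were higher, such as Lig1, the DNA ligase, at 164 against 15.4 CPM (log2 ratio 3.41) in the tdTomato- library. Of 11 checkpoint genes, 4 of 5 were higher in both libraries. Trp53, the p53 gene, was the exception, with 144 and 148 CPM among tdTomato- cells (-0.04).

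The regulators that act in G1 were mixed. Of 6 genes for D cyclins and their kinases, 0 of 4 were higher and 1 was lower among tdTomato- cells, and 2 of 5 were higher and 1 was lower among tdTomato+ cells. The lower one was Ccnd2, cyclin D2, at 171 CPM in module-high against 491 CPM in low cells (log2 ratio -1.52, and -1.58 in the tdTomato+ library). Without thinning its ratios were -0.51 and -0.70, no longer past 2-fold. Ccnd3, cyclin D3, stood at 305 and 409 CPM in the tdTomato- library, not past 2-fold. The log2 ratio of Cdk4, a partner of the D cyclins, was 0.80 in the same library (168 against 96.4 CPM) and past 2-fold, at 1.15, among tdTomato+ cells (218 against 98.2 CPM). Of 7 cyclin-dependent kinase inhibitors, 3 of 4 and 2 of 4 were higher. They included Cdkn2a at 75.8 and 4.80 CPM (3.98) and Cdkn2c at 85.5 and 17.2 CPM (2.31), whereas Cdkn1b (p27), the inhibitor of resting T cells, stood at 108 and 137 CPM (-0.34). Of 13 genes of the Rb and E2F families and their partners, 1 of 4 and 2 of 5 were higher, with Rbl1 at a log2 ratio of 1.54.

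Outside the cell cycle lists, several genes that mark the subsets also differed in this contrast. Il17a stood at 1668 CPM in module-high against 602 CPM in low tdTomato- cells (log2 ratio 1.47) and Gzmk at 193 against 58.7 CPM (1.72), while Ncr1 stood at 51.7 against 225 CPM (-2.12) and Ifng at 374 against 681 CPM (-0.87). The signs were the same in the tdTomato+ library (1.21, 1.21, -1.58 and -0.46). Cd8a, also a marker of the Gzmk subset, was instead lower in module-high tdTomato- cells, at 262 against 499 CPM (-0.93). Among tdTomato+ cells its log2 ratio was 0.09. Within the IL17 subset of the tdTomato- library the Il17a level was close in module-high and other cells, at 3857 CPM (172 cells) and 3405 CPM (1158 cells), and in the tdTomato+ library it was 3561 CPM (7 cells) and 1479 CPM (58 cells). Within the Gzmk subset Ifng stood at 626 against 1169 CPM and at 783 against 998 CPM in the same order of libraries. Gzmk itself stood there at 459 against 303 CPM and at 239 against 290 CPM. Within the Ncr1 subset Ncr1 stood at 259 against 397 CPM and at 649 against 758 CPM. How far the subset makeup accounts for the contrast was not tested. Among the 10 genes with the largest ratios in the tdTomato- library were Gm4316 (4.77), Rcc1, a chromatin-bound exchange factor (3.52), Ezh2, the Polycomb methyltransferase (3.17, at 276 against 30.7 CPM), and the receptor gene Trav13-5 (2.50). Among the 10 with the lowest were Tyrobp, an adaptor of NK receptors (-2.52, at 184 against 1057 CPM), Trgv5 (-2.41) and Klri1 (-2.19). Without thinning, 3 of the 10 highest and 5 of the 10 lowest genes were the same.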

How the data were processed

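The authors deposited raw UMI counts per gene and cell, 1 matrix for each library, made with Cell Ranger (10.0.0 per the file headers) on mm10 from 5′ libraries, with T cell receptor contig tables. Cells were kept that had 300 or more genes and mitochondrial counts of up to 10%. They were clustered with scanpy 1.11.5 and leidenalg 0.10.2 (2000 variable genes, 30 components, 15 neighbours, resolution 1) without cell cycle genes, and γδ T-like cells were clustered again after 255 genes that followed the module had also been removed. Levels are counts per 1000000 summed over cells, with exact Poisson and binomial intervals (Clopper-Pearson) from scipy 1.17.1, and the ratio calls were tested on simulated data. PCR and capture effects are not in these intervals, and the Poisson and ratio intervals also leave out the spread between cells. Members, lists and named genes (every member, the other cell cycle lists, class markers, and the 10 largest ratios each way between module-high and other γδ T-like cells) were chosen with earlier results of these data known. The naming limits for clusters, the removal of genes that followed the module and the use of thinned counts for the module-high contrast were chosen after values had been seen. Gene positions are from an annotation on GRCm38, the assembly that mm10 also names.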

Additional observations from a re-analysis of the deposited data

How the results depend on the processing

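No paired analysis was possible because there was 1 library for each sort gate. In γδ T-like cells the share with at least 10 module counts was 45.3% (tdTomato+) and 33.8% (tdTomato-), and it became 79.6% and 74.7% at a limit of 5, 17.99% and 10.4% at 20, 12.6% and 6.86% after thinning, 23.5% and 12.9% without the 4 genes of the remaining group, and 61.4% and 41.8% in cells with a γ or δ contig. For the tdTomato- library it was also 32.1% without cells above the Scrublet limit, 32.4% at resolution 0.5, 31.8% with cell cycle genes kept in the clustering, 16.8% in Trdc cells without Trac or Trbc and 29.5% without cells with at least 3 endothelial counts. The module-high share moved from 12.6% to 32.0% and from 6.86% to 24.8% at 5 thinned counts, and to 0% and 5.0% under the Trdc definition. In the tdTomato- library it was 4.87% at 20 thinned counts, 7.59% at resolution 0.5, 3.96% with cell cycle genes kept, 5.45% without the 4 genes, 9.92% with a contig and 5.55% without endothelial counts. The log2 module ratio of 0.48 was 0.44 without cells above the Scrublet limit, 0.40 and 0.42 at resolutions 0.5 and 2, 0.81 with cell cycle genes kept and 0.58 without the 4 genes. It reversed to -0.26 in contig cells and to -0.99 under the Trdc definition. The IL17 share of module-high tdTomato- cells, 31.7%, was 23.4% at resolution 0.5, 54.7% with cell cycle genes kept, 21.2% and 37.7% at 5 and 20 thinned counts, 19.5% with a contig, 50% under the Trdc definition and 15.3% without endothelial counts. Lowering the level limit to 20 CPM raised the count of members at least 2-fold higher from 1 to 3. The αβ T-like log2 ratio of -0.05 reversed to 0.27 and 0.13 at resolutions 0.5 and 2, to 0.15 after thinning and to 0.030 in contig cells. Cause was not tested for these shifts, and the limits on thinned counts and the γδ clustering with module-following genes kept were chosen after seeing the data. With 1 library per gate, differences between animals cannot be told apart from those between gates.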

Other observations

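Clusters with endothelial markers that also had Ptprc, called mixed, held 331 module-high cells of 3927 in the tdTomato+ library (8.43%) at a module level of 2042 CPM. The cluster led by Il4 and Clec4g was the highest of them, at 13.1% of cells, with a median of 16809 UMIs over 1870 tdTomato+ cells. Those led by Cd4 and Aff3 and the smallest mixed cluster had 4.56% and 2.77%. Cholangiocyte-like cells of the tdTomato+ library had the largest share of any class, 23 of 82 (28.0%), but 11 of the 82 had 8 to 12 thinned counts, near the limit of 10, and the share was 12.2% at 20 thinned counts. The median module-high cell of this class had 3 counts over the G1/S and S-phase genes and 0 over the mitotic genes. Erythroid-like cells gave 4 of 110 tdTomato+ cells (3.64%), and mesenchymal-like cells 1 of 56. H3c3 had a count in 55.9% of module-high tdTomato+ and 49.1% of module-high tdTomato- γδ T-like cells.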
